A study of Mus musculus with 4 samples.

Results

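The cyclins and cyclin-dependent kinases of the division cycle were examined in mouse liver after partial hepatectomy, the surgical removal of part of the organ, after which the rest grows back. The set held 10 genes: cyclin A2 (Ccna2), cyclin B2 (Ccnb2), the D cyclins Ccnd1, Ccnd2 and Ccnd3, the E cyclins Ccne1 and Ccne2, and the kinases Cdk1, Cdk2 and Cdk4. They were chosen by name, and every probe set (a group of probes against one transcript) whose annotation named exactly 1 of these symbols was taken, which gave 25 of the 45101 probe sets on the array. Ccnb1, the other main B cyclin, was not analysed here. Total RNA was that of mature liver of C57BL/6J mice, which was labelled with biotin for hybridisation on Affymetrix expression arrays. There were 2 arrays of liver taken 48 h after a sham operation and 2 of liver taken 48 h after partial hepatectomy. No genotype, sex or age beyond "mature" was given, nor was the extent of the resection, and the labels do not say whether the RNA on an array came from 1 mouse or from several. The p-values therefore measure the spread between these arrays, pooled in part over all tested probe sets. That spread may be technical in part, and 2 arrays per group limit the precision of every value.

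Cyclins are the regulatory subunits that switch on cyclin-dependent kinases, and their order of appearance sets the order of the division cycle. D cyclins bind Cdk4 or Cdk6 and start the inactivation of the retinoblastoma protein in G1, E cyclins bind Cdk2 at the entry into S phase, cyclin A2 works with Cdk2 and Cdk1 through S and G2, and B cyclins with Cdk1 drive mitosis. Hepatocytes of adult liver are mostly quiescent and re-enter this cycle after resection, and the induction of cyclin D1 is regarded as the step that commits them to divide without further growth factor.

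At 48 h the transcripts of the cyclins and the kinase of late cycle phases rose: Ccna2, Ccnb2 and Cdk1 were between 6.49 and 13.0 times their sham signal. Cyclin D1 rose as well, in all 3 of its probe sets. The E cyclins, Cdk2 and Cdk4 stood higher on both hepatectomy arrays than on both sham arrays without passing the test. Of all tested probe sets 24.4% lay wholly above in that way. Neither Ccnd2 nor Ccnd3 passed. By limma with Benjamini-Hochberg adjustment over all 27022 probe sets tested, 7 of the 23 tested member probe sets were called higher and 0 lower at an adjusted p of 0.05. Over the whole array 3.39% of tested probe sets were called, 2.51% higher and 0.877% lower. At an unadjusted p under 0.05, 16 of the 23 passed, against 16.6% of all tested probe sets.

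Sequence upstream of the gene start was available from RefSeq (GRCm38.p6) for 6 of the 10 genes, Ccnb2, Ccnd3, Ccne1, Cdk1, Cdk2 and Cdk4, and not for Ccna2, Ccnd1, Ccnd2 and Ccne2. Each window ran from 250 bases before to 50 bases after the annotated start. The promoters of Ccnb2 and Cdk1 are shown because both genes were called higher, and that of Cdk2, chosen after its values were seen, because it is a kinase of the same family that was not. Each is printed 5′ to 3′ from 250 bases before the start to 20 bases after it. Capitals mark matches on either strand to 3 motifs: TTTGAA, the cell cycle gene homology region (CHR), CCAAT, the box bound by NF-Y, and the E2F forms TTTCCCGC, TTTCGCGC, TTTGCCGC and TTTGGCGC. A match on the opposite strand appears as the reverse complement.
Ccnb2, chr9:70421535-70421804, minus strand: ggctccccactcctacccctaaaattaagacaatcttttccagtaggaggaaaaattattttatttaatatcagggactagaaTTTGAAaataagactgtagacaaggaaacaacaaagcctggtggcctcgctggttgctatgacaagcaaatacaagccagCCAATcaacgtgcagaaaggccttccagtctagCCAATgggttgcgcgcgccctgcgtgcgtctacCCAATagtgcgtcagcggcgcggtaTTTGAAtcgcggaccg
Cdk1, chr10:69352893-69353162, minus strand: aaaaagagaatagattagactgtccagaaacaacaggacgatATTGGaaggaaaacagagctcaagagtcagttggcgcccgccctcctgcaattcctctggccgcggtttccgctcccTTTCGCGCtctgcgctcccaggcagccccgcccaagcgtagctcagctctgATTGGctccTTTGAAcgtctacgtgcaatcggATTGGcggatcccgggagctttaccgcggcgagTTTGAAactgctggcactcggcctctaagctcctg
Cdk2, chr10:128705032-128705301, minus strand: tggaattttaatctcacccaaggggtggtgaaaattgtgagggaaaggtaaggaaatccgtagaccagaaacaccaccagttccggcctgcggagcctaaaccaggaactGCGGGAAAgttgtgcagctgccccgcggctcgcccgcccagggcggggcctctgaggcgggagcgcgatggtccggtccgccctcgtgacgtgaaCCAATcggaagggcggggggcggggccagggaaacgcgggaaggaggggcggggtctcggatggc

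The Ccnb2 window held 3 CCAAT matches and 2 CHR matches, and no E2F form. Its CCAAT boxes began 87, 54 and 21 bases before the start, so that each lay 33 bases from the next, and 1 CHR match began at base 5 after the start. The Cdk1 window also held 3 CCAAT matches, all on the opposite strand, and 2 CHR matches, which began 71 and 15 bases before the start, with 1 E2F form (TTTCGCGC). The distance from the CCAAT match nearest the start to the following CHR match was 25 bases in Ccnb2 and 33 bases in Cdk1. Cdk2 had 1 CCAAT match and 1 E2F form and no CHR match. Cdk4 and Ccne1 held none of the motifs, and Ccnd3, which has 2 annotated starts, held 1 CCAAT match at 1 of them. No match overlapped another in these windows. Of 32851 windows of 300 bases in the same table, 17.9% held a CHR match, 37.4% a CCAAT match, 6.95% both and 2.26% an E2F form. Ccnb2 and Cdk1 were the only promoters of the 6 genes with both CHR and CCAAT letters; a match of letters describes the sequence and does not show that a factor binds there.

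**Figure D1:**
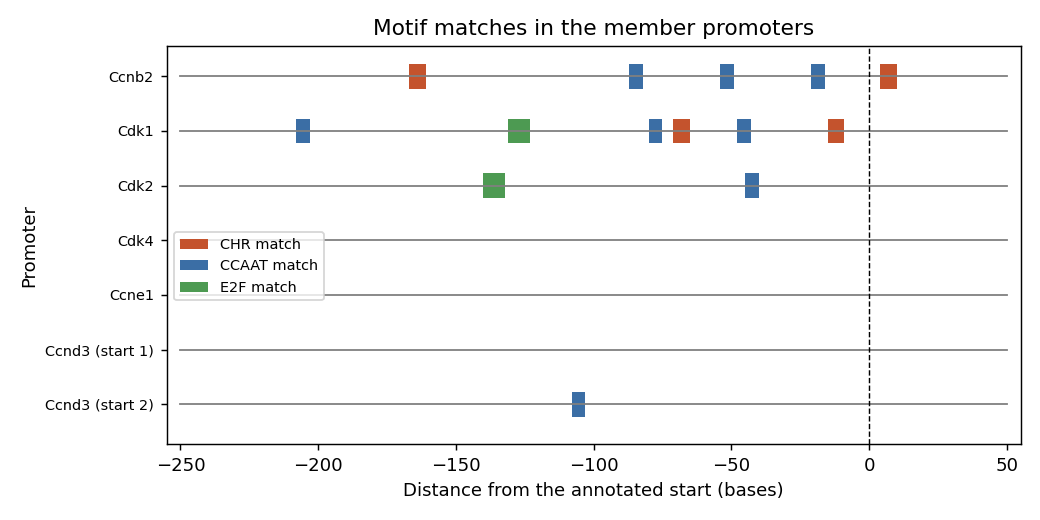
Positions of CHR, CCAAT and E2F matches along 7 promoter windows of 6 genes, in bases from the annotated start (dashed line); each coloured block spans 1 match on either strand. Ccnb2 and Cdk1 each carry 3 CCAAT and 2 CHR matches, while Cdk4 and Ccne1 carry none.

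Values are given below as signals, the linear intensities deposited by the authors. Fold changes are differences of log2(signal + 8.57), hepatectomy minus sham, with the standard error of the limma fit. The added offset makes the fold change of a dim gene smaller than the ratio of its signals. A probe set whose log2 values averaged under 5.09 was not tested. This left 23 of the 25, and all 23 would have stayed with their sham arrays alone, so none entered through its hepatectomy signal.

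Ccnd1, the D cyclin induced by growth signals in hepatocytes, had a signal of 1333 and 2059 in sham liver and of 5654 and 5932 after hepatectomy in its brightest probe set, 1448698_at (1696 ± 513 against 5793 ± 196, SD, n = 2). Both hepatectomy arrays were at least 2.75 times the higher sham array, and the fold change was 1.80 ± 0.20 (SE; limma adjusted p = 0.00328; 95% interval 1.33 to 2.27). Probe set 1417420_at read 161 and 364 in sham liver and 1303 and 1261 after hepatectomy (2.36 ± 0.34, adjusted p = 0.0105). Probe set 1417419_at read 57.8 and 133 against 448 and 408 (2.17 ± 0.37, adjusted p = 0.0197). In all 3 probe sets sham replicate 1 was the lowest array and sham replicate 2 stood between it and the hepatectomy arrays. Leaving out sham replicate 1 lowered the 3 fold changes to 1.49, 1.79 and 1.62, and leaving out sham replicate 2 raised them to 2.11, 2.92 and 2.72, in the same order of probe sets; without sham replicate 1 the call of 1417419_at was lost (adjusted p = 0.0815). All 3 calls were lost in a fit without the mean-variance trend (adjusted p = 0.0814, 0.107 and 0.12), and those of 1417420_at and 1417419_at when dim probe sets were kept (0.0597 and 0.093).

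Ccnd2, a D cyclin of many proliferating cells, had 7 probe sets, all tested and none called, with fold changes from -0.09 to 0.57. Its brightest, 1434745_at, read 796 and 860 in sham liver and 1070 and 1298 after hepatectomy (0.51 ± 0.18, adjusted p = 0.217; 95% interval 0.08 to 0.93). In 6 of the 7 probe sets both hepatectomy arrays lay above both sham arrays, by as little as 1.02 times in 1416122_at, and in 1416124_at the groups overlapped. Of all tested probe sets 24.4% lay wholly above and 23.3% wholly below, and probe sets of 1 gene are not independent. Ccnd3, the third D cyclin, had probe sets that pointed opposite ways. In 1415907_at it read 660 and 734 against 936 and 757 (0.27 ± 0.20, adjusted p = 0.565), and in 1438805_at it read 71.8 and 63.4 against 32.3 and 21.1 (-1.13 ± 0.38, adjusted p = 0.177), so that the first pointed up and the second down, with no overlap of groups in either. The third, 1444323_at, lay between 14.8 and 20.6 on the 4 arrays, about 20.4, the level reached by the brightest of 27 control probe sets for bacterial transcripts, and was not tested.

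On their brightest tested probe sets the change of Ccnd1 exceeded that of Ccnd2 by 1.29 and that of Ccnd3 by 1.53 on the log2 scale. Over the 4 pairings of a hepatectomy with a sham array the first difference ran from 0.93 to 1.65 and the second from 1.11 to 1.95. With 2 arrays against 2, an exact two-sided permutation test cannot give less than p = 0.333 and so cannot pass 0.05 whatever the size of a difference; for the 8 pairs of members compared, the ranges over the pairings are therefore given as a description, with no test. Between Ccnd2 and Ccnd3 the difference was 0.24, and it ran from -0.07 to 0.54.

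Cdk4, the kinase partner of the D cyclins, was higher on both hepatectomy arrays in each of its 3 probe sets. Among all tested probe sets 24.4% lay wholly above. The 3 changes of Cdk4 were nearly alike. Probe set 1422441_x_at read 972 and 1237 against 1706 and 1500 (0.54 ± 0.19, adjusted p = 0.19), 1422439_a_at read 808 and 926 against 1321 and 1225 (0.55 ± 0.18, adjusted p = 0.158), and 1422440_at read 329 and 390 against 508 and 488 (0.47 ± 0.21, adjusted p = 0.33). None passed. The 95% intervals of the 3 fold changes together covered -0.03 to 0.97. The endings _x and _s mark probe sets that may match several transcripts, and _a marks one that matches several transcripts of a single gene.

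**Figure D2:**
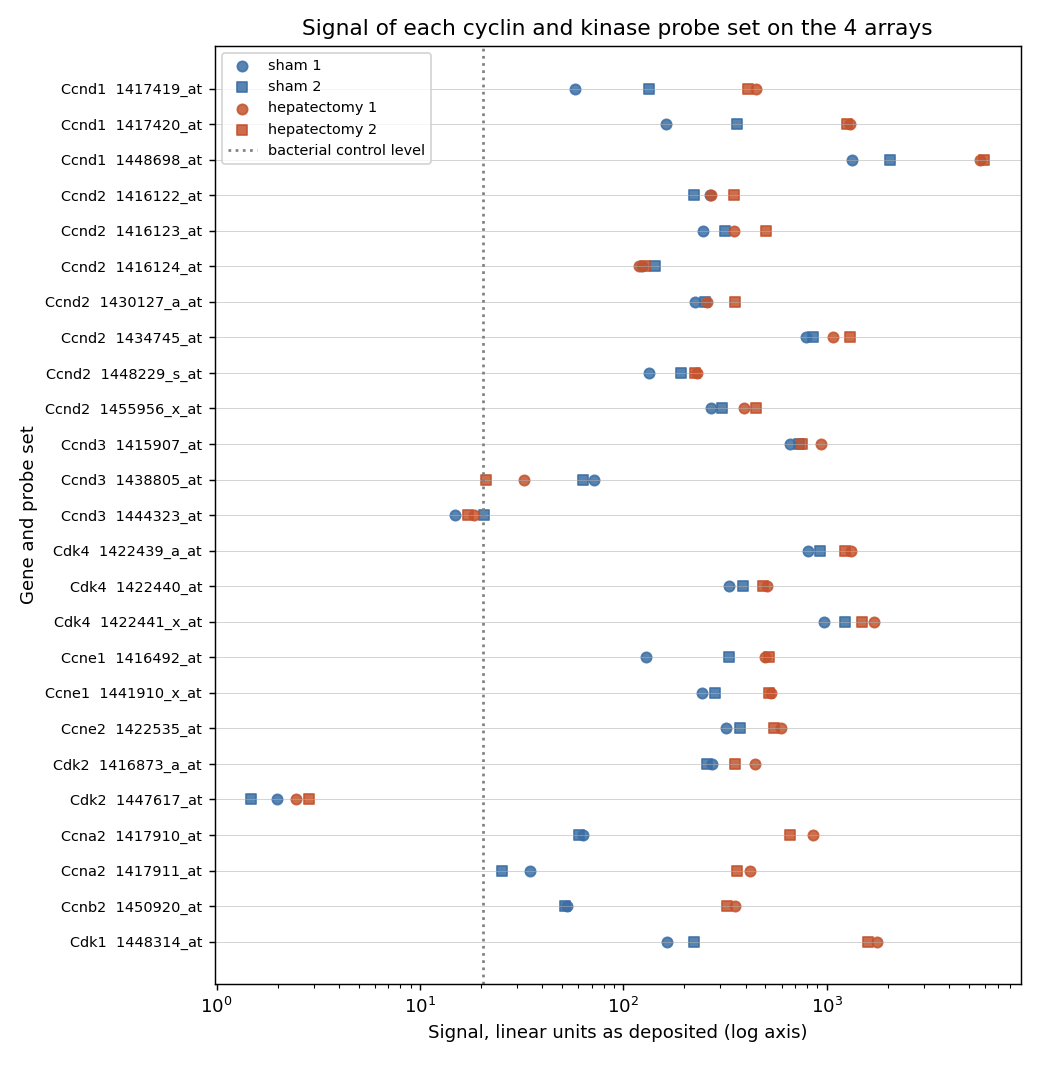
Signal of all 25 probe sets (rows) on each of the 4 arrays, on a log axis; circles and squares are replicates 1 and 2, blue is sham, orange is hepatectomy, and the dotted line is the bacterial control level of 20.4. The Ccna2, Ccnb2 and Cdk1 rows show a wide gap between the colours, the Ccnd2 rows a narrow one or none, Ccnd3 probe set 1438805_at lies lower after hepatectomy, and the rows of Ccnd1 show the wide spread of its sham arrays.

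Ccne1 and Ccne2 encode the cyclins that activate Cdk2 at the start of S phase. Ccne1 read 243 and 282 in sham liver and 532 and 522 after hepatectomy in probe set 1441910_x_at (262 ± 28.0 against 527 ± 7.31, SD, n = 2), and the fold change of 0.99 ± 0.22 just missed the threshold (adjusted p = 0.0539; 95% interval 0.48 to 1.49). It passed with robust eBayes (adjusted p = 0.042) and with a stricter filter (0.0445). In its other probe set, 1416492_at, the sham arrays were far apart, 129 and 330 against 498 and 521, and the fold change of 1.27 ± 0.39 was not called (adjusted p = 0.147). It was 0.62 without sham replicate 1 and 1.92, and called, without sham replicate 2 (adjusted p = 0.032). As for Ccnd1, the lower of the sham arrays was replicate 1. Ccne2 had 1 probe set, 1422535_at, which read 319 and 377 against 594 and 551 (0.71 ± 0.21, adjusted p = 0.135; 95% interval 0.22 to 1.20). The changes of the E cyclins differed by 0.28, and by 0.23 to 0.33 over the pairings of arrays.

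Cdk2, the partner of E and A cyclins, read 273 and 257 in sham liver and 443 and 354 after hepatectomy in probe set 1416873_a_at (0.57 ± 0.23, adjusted p = 0.276; 95% interval 0.03 to 1.11). The groups did not overlap, where 24.4% of all tested probe sets lay wholly above, and the change was close in size to that of Cdk4. Its other probe set, 1447617_at, lay between 1.48 and 2.85, under the bacterial control level on all 4 arrays, and was not tested.

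Ccna2, Ccnb2 and Cdk1 were called in every probe set. Ccna2, the somatic cyclin A, read 63.2 and 60.4 in sham liver and 854 and 663 after hepatectomy in probe set 1417910_at (3.44 ± 0.26, adjusted p = 0.000722). Its other probe set, 1417911_at, read 35.0 and 25.3 against 422 and 362 (3.38 ± 0.30, adjusted p = 0.00122). The lowest hepatectomy array was 10.5 times the highest sham array in the first and 10.3 times in the second, and the pair of probe sets agree within their standard errors.

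Ccnb2, a B cyclin that is made as cells approach mitosis, read 52.9 and 51.5 in sham liver and 353 and 325 after hepatectomy (52.2 ± 0.97 against 339 ± 20.1, SD, n = 2; probe set 1450920_at). The replicates of each group lay close together and the fold change was 2.51 ± 0.27 (adjusted p = 0.00273). Cdk1, the kinase of mitotic entry, read 164 and 222 against 1778 and 1591 in its single probe set, 1448314_at (3.08 ± 0.22, adjusted p = 0.000719). Its lowest hepatectomy array was 7.15 times its highest sham array. The 4 probe sets of Ccna2, Ccnb2 and Cdk1 were called under every alternative setting and with any 1 array left out, with fold changes from 1.93 to 3.67 and adjusted p no higher than 0.0228.

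Among the kinases, the change of Cdk1 exceeded that of Cdk2 by 2.52 and that of Cdk4 by 2.54, while Cdk2 and Cdk4 differed by 0.03. The first of these ran from 2.18 to 2.85 over the pairings of arrays, the second from 2.49 to 2.59 and the third from -0.26 to 0.31. The change of Ccna2 exceeded that of Ccnb2 by 0.92 (0.79 to 1.06 over the pairings). An offset of 50 in place of 8.57 lowered the changes of the dim probe sets of Ccna2 to 2.84 and 2.46 and that of Ccnb2 to 1.93. Without sham replicate 2 the changes of Ccnd1 in 1417420_at and 1417419_at, 2.92 and 2.72, exceeded that of Ccnb2, 2.50.

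**Figure D3:**
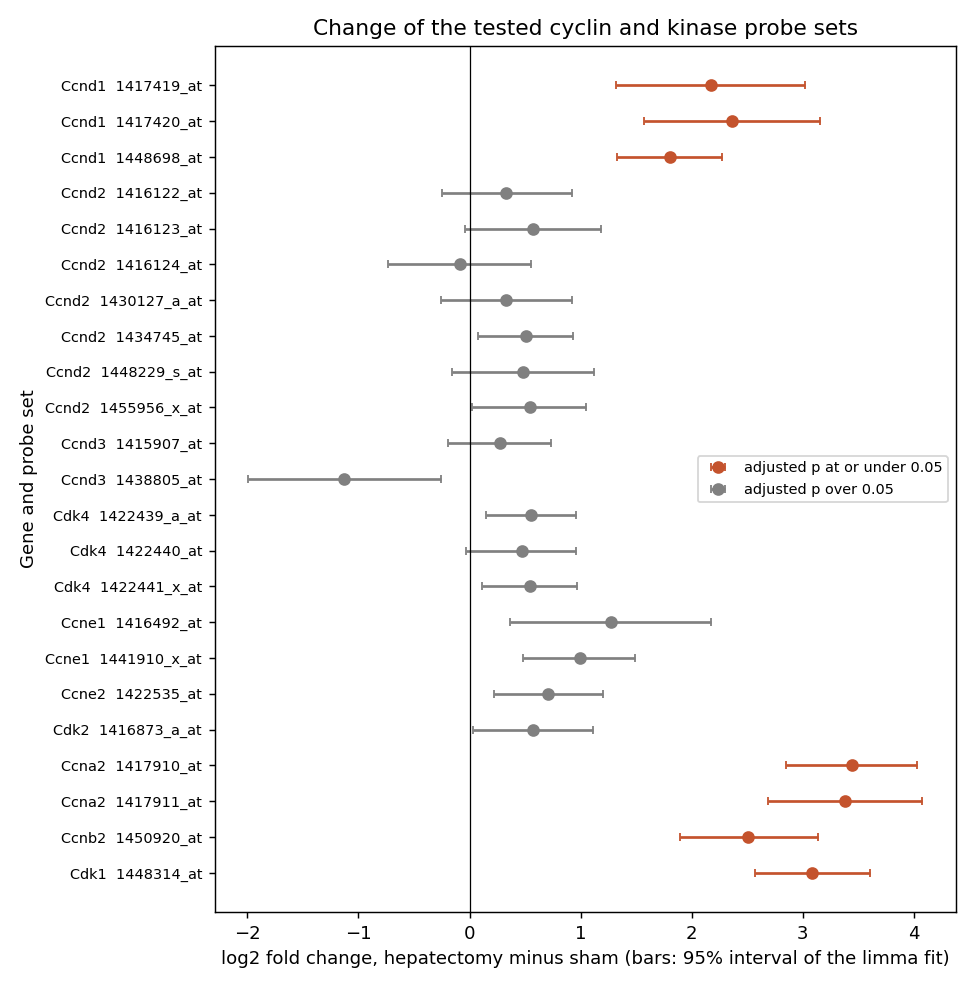
Log2 fold change of the 23 tested probe sets with the 95% interval of the limma fit; orange points passed an adjusted p of 0.05 and grey points did not. The 7 orange points belong to Ccnd1, Ccna2, Ccnb2 and Cdk1, and the grey points of Cdk4, Ccne1, Ccne2 and Cdk2 all lie to the right of 0.

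Over the 23 tested probe sets, 21 had both hepatectomy arrays above both sham arrays, 1 had both below and 1 overlapped. Among all tested probe sets 24.4% lay wholly above and 23.3% wholly below. The median fold change of the tested member probe sets was 0.57, against 0.00 over all tested probe sets. These counts are over probe sets, of which Ccnd2 alone gave 7, and several probe sets of 1 gene are not independent. The median absolute log2 difference between the 2 sham arrays was 0.233 over the member probe sets and 0.234 over all; between the 2 hepatectomy arrays it was 0.159 and 0.273. For the 4 pairs of a sham with a hepatectomy array it was 0.583 to 0.806 over the members and 0.299 to 0.344 over all.

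**Figure D4:**
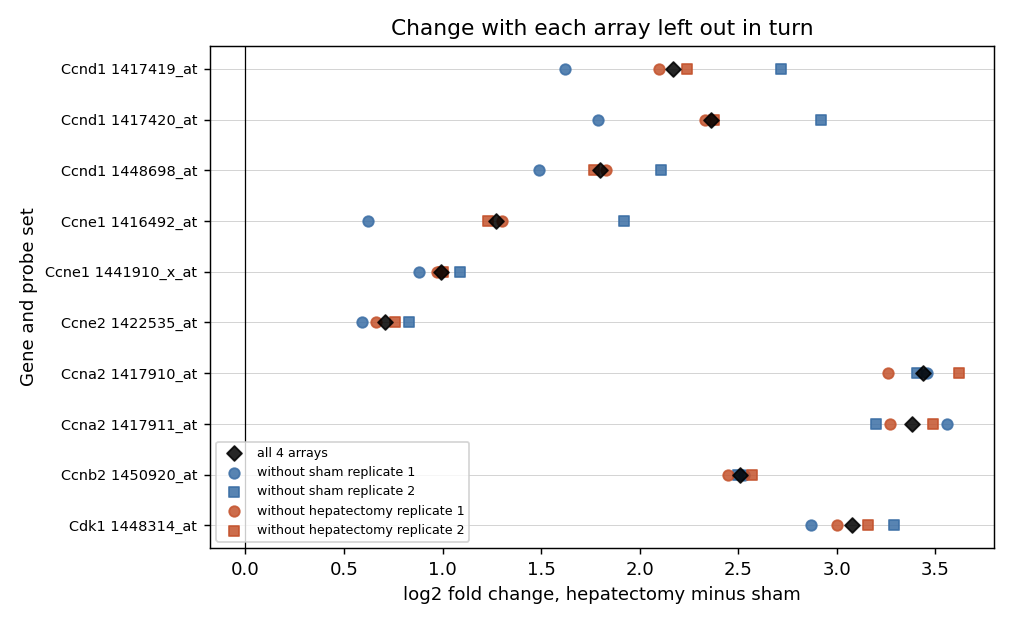
Log2 fold change of 10 probe sets of Ccnd1, Ccne1, Ccne2, Ccna2, Ccnb2 and Cdk1 with all 4 arrays (diamonds) and with each array left out. For Ccnd1 and for Ccne1 probe set 1416492_at the blue points, which leave out a sham array, lie farthest from the diamond, while those of Ccnb2 nearly coincide.

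The genes nearest to 4 members in pattern were found by the distance between log2 values over the 4 arrays, each gene centred on its own mean, among 12559 other genes. With 4 arrays this is a description only. Nearest to Cdk1 were Top2a, which encodes topoisomerase II alpha, Ddias, Rab3b, the proliferation marker Mki67 and the replication factor Gins2, at distances of 0.159 to 0.227. Nearest to Ccna2 were the spindle gene Spag5, Cdca3, the chromatin remodeller Hells, the plakophilin Pkp1 and the clone 2010003K11Rik, at 0.24 to 0.315. Nearest to Ccnb2 were the spindle checkpoint gene Mad2l1, the apolipoprotein gene Apoa4, Rbl1, Kbtbd6 and the condensin gene Ncaph, at 0.106 to 0.192. Nearest to Ccnd1 were the condensin gene Ncapd2, Nrm, the kinetochore gene Spc25, the flap endonuclease Fen1 and Grhl1, at 0.0734 to 0.166. Spag5, Pkp1, Kbtbd6 and Rab3b had dim sham signals, from 1.65 to 20.8. They passed the filter on dim probe sets only through their hepatectomy arrays, so their likeness to the cyclins and Cdk1 supports nothing.

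No gene passed in a list of cyclins, cyclin-dependent kinases and related genes outside the member set, called here those of other roles. The related genes included Mnat1, Cables1, Cables2, Ccndbp1 and the Cdk-like kinase Cdkl2. Some genes of the list serve transcription or splicing, but it also held genes that act in the division cycle, such as Cdk6 and Cdk7. Of 41 listed genes 39 had a probe set, 36 were tested and 0 were called by limma. At an unadjusted p under 0.05, 4 passed, where 19.9% of all genes did. Each gene stood here by its brightest tested probe set. Over all genes 4.67% were called, 3.57% higher and 1.09% lower. Fold changes ran from -0.90 to 0.74, with a median of -0.05 against 0.02 over all 12560 genes. Cdk6, the other kinase of the D cyclins, read 645 and 928 in sham liver and 1090 and 1200 after hepatectomy (0.55 ± 0.22, adjusted p = 0.253), a change close to that of Cdk4. Cdk7, the kinase that activates the cell cycle kinases, read 704 and 659 against 316 and 644 (-0.58 ± 0.32, adjusted p = 0.419); its hepatectomy arrays were far apart, and it was called lower without hepatectomy replicate 2 (-1.09, adjusted p = 0.016). Ccng1, a p53 target, differed by -0.10 ± 0.15 (adjusted p = 0.801). Cdk18 (-0.90 ± 0.20, adjusted p = 0.0566) and, without hepatectomy replicate 1, Cdk12 (-1.26, adjusted p = 0.00617) came closest or passed, and both are named after their values were seen.

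A further list held 36 genes that act on cyclin-Cdk complexes or directly below them. All 36 had a probe set, 33 were tested, 8 were called higher and 1 lower, and the median fold change was 0.41. Over all genes 3.57% were called higher and 1.09% lower, with a median of 0.02. Of the 8, 4 passed the filter on dim probe sets only through their hepatectomy arrays (Cdkn3, Pkmyt1, Cdc20 and Cdc25c), so they had to differ once tested and their calls support nothing. In the fit without that filter 5 of the 9 were called, and E2f1, Cdc25b, Cdc25c and Fbxo31 were not (adjusted p = 0.0732, 0.138, 0.0613 and 0.0592). The other 4 were Cdkn1a, Rbl1, E2f1 and Cdc25b, the last 2 of these named after their values were seen. Of the 3 tested probe sets of E2f1, 1 was called. E2f1 lost its call without sham replicate 1, and Cdc25b without hepatectomy replicate 2 or without either sham array.

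The called genes included brakes and accelerators of the kinases, but Cdc25b and Cdc25c lost their calls in the fit without the filter. The inhibitor gene Cdkn1a kept its call there. Cdkn1a, the inhibitor p21, read 83.7 and 92.9 in sham liver and 998 and 646 after hepatectomy. The change of Cdkn1a was 3.07 ± 0.28 (adjusted p = 0.00138), while Cdkn1b, the inhibitor p27, read 1820 and 1840 against 1860 and 1450 and differed by -0.16 ± 0.17 (adjusted p = 0.725). Rbl1, the pocket protein p107, read 142 and 141 against 886 and 730 (2.44 ± 0.23, adjusted p = 0.00145); of its 2 tested probe sets 1 was called.

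For the 4 genes that passed the filter through their hepatectomy arrays, the signals are given with the adjusted p of the fit without it. Cdc25c, the phosphatase that activates Cdk1, read 8.01 and 16.6 in sham liver and 131 and 133 after hepatectomy (adjusted p = 0.0613). Pkmyt1, the kinase that inhibits Cdk1, read 14.8 and 11.1 against 194 and 178 (adjusted p = 0.0302). Both sham arrays lay under the bacterial control level in each of these genes. The mean hepatectomy signal was 6.47 times that level for Cdc25c and 9.13 times for Pkmyt1. Cdkn3, a phosphatase that acts on Cdk proteins, read 26.2 and 14.7 against 291 and 265 (adjusted p = 0.0254). Cdc20, which directs the anaphase promoting complex to cyclins A and B, read 6.74 and 42.2 against 687 and 551 (adjusted p = 0.0357), with its sham arrays far apart. Foxm1, a transcription factor of Ccnb genes and Cdk1, differed by 1.21 ± 0.33 (adjusted p = 0.107); 1 probe set out of 3 tested was called. The gene called lower, named after its values were seen, was Fbxo31, an F-box gene whose human product has been reported to direct the turnover of cyclin D1. It read 804 and 829 against 314 and 386 (-1.21 ± 0.21, adjusted p = 0.0203), in 1 of its 2 tested probe sets, and lost its call without either sham array (adjusted p = 0.169 without replicate 1 and 0.145 without replicate 2). Without sham replicate 1, 5 regulators in all were called, in place of 9.

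**Figure D5:**
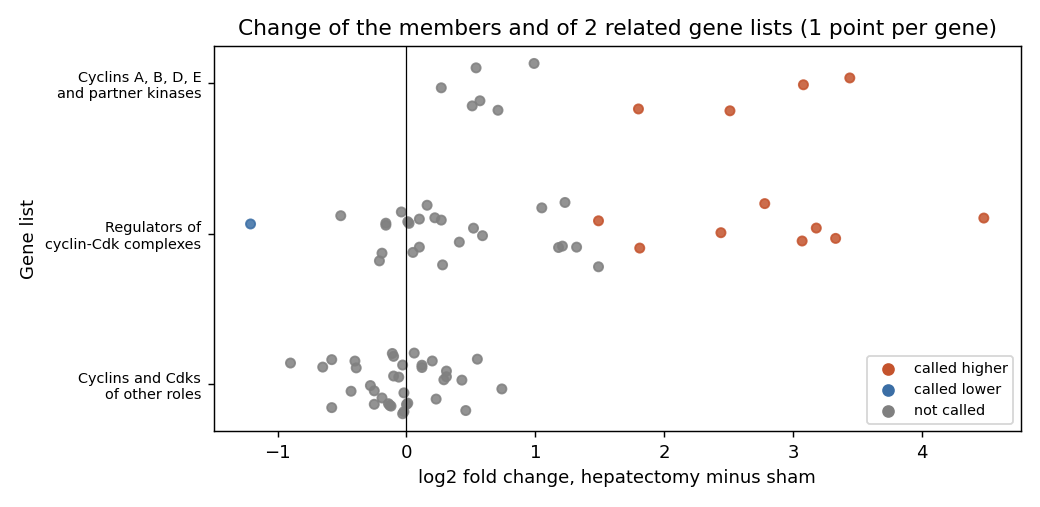
Log2 fold change of each tested gene, 1 point per gene by its brightest tested probe set, for the 10 members, 33 regulators of cyclin-Cdk complexes and 36 cyclins and Cdks of other roles; vertical scatter within a row has no meaning. Coloured points passed an adjusted p of 0.05, and the bottom row has none.

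The defining markers of the labelled tissue were present: 9 hepatocyte genes with a probe set, Alb among them, summed to signals of 113900 to 132700 on the 4 arrays, and none was called. In bulk tissue a change in the number of cells of a type and a change of RNA per cell cannot be told apart, and which liver cells carried the cyclin transcripts was not measured. Markers of other cells moved with the operation. The neutrophil list, 6 genes with a probe set of which 2 were tested and both rose (S100a8 and S100a9), summed to 463 and 370 in sham liver and to 9860 and 3558 after hepatectomy, with Mpo, Ltf and Camp under the bacterial level on all arrays. Of 7 Kupffer cell and macrophage genes Marco rose and Csf1r fell, and the summed signals were 14130 and 14310 against 14710 and 15210. Klf1, 1 of 3 tested erythroid genes, fell. Hepatectomy replicate 1 stood apart in adrenal cortex genes, of which 7 with a probe set summed to 19590 there and to 207 to 244 on the other arrays, and in 4 fat cell genes, which summed to 2287 there and to 66.7 to 277 elsewhere. Of the adrenal genes only Nr5a1 did not follow (18.2 there, 20.6 to 36.8 elsewhere). Of the fat cell genes, Lep was alike on both hepatectomy arrays (22.2 and 22.6). Adipoq also stood above sham on hepatectomy replicate 2 (56.3 against 4.02 and 6.29). Without hepatectomy replicate 1 the fold changes were 3.26 and 3.27 for Ccna2, 2.45 for Ccnb2, 3.0 for Cdk1 and 1.83 to 2.33 for Ccnd1. Of endothelial, stellate, lymphocyte, bile duct and pancreas markers (7, 7, 6, 5 and 1 tested) none was called. The part of the neutrophil, macrophage and erythroid markers in the cyclin changes was not tested.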

How the data were processed

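The authors deposited 1 intensity per probe set and array on a linear scale, for which the submitters' processing notes name GCOS 1.4; neither its settings nor detection calls or scan dates were given, and batches were not tested. After trimming 2% at each end every array had a mean of 500, so a scaling had been applied, and it was kept. From the 45101 probe sets 64 controls were left out. Signals were turned to log2 after adding the 20th percentile of all values (8.57), and probe sets with a mean under the 40th percentile were dropped. The operations were compared in R 4.3.3 with limma 3.58.1 (lmFit, then eBayes with its trend option), two-sided, with Benjamini-Hochberg adjustment over all 27022 probe sets. The variance of each probe set had 2 residual degrees of freedom, and the trend over all tested probe sets added 6.02. The code was tested on simulated data. Genes are named from the platform annotation, with probe sets of several symbols unused. Where both sham arrays lay under the bacterial control level, the mean hepatectomy signal is given as a multiple of that level. All probe sets of the 10 genes are reported; from each related list the text names up to 6 called genes with the smallest adjusted p, and Cdk6, Cdk7, Ccng1, Cdkn1a, Cdkn1b and Foxm1 in any case, with others marked. The members and lists were chosen with earlier results of these data known. The alternatives changed the offset, filter, scaling, variance model, replicate block, gene summary and arrays.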

Additional observations from a re-analysis of the deposited data

How the results depend on the processing

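Of 298 fold changes of member probe sets under alternative settings, 286 kept their direction and their side of the threshold. The exceptions were 6 lost calls of Ccnd1, 5 gained calls of Ccne1, and Ccnd2 probe set 1416124_at, which stood at -0.09, turned to 0.01 without sham replicate 2 and, with an array left out, was lowest at -0.20 without sham replicate 1. The member probe sets called higher numbered 7; 6 to 8 with an array left out, 5 without the filter, 4 without trend, and 0 were called lower under any setting. Over the whole array 916 probe sets were called, against 308 without the filter, 258 without trend, 1943 with the replicate number as a block and 341 to 2012 with an array left out. Of the regulators 9 were called, 5 without the filter, 5 without trend and 5 to 11 with an array left out. Of the cyclins and kinases of other roles 0 were called, 1 with robust eBayes, 1 with the stricter filter, 1 when probe sets were averaged per gene, each time Cdk18, and 0 to 2 with an array left out. The replicate numbers are not known to pair the arrays (correlation of the deviations of same-numbered arrays 0.102, from 2 pairs); with the block 9 member probe sets were called, the added 2 being those of Ccne1 (1.27 and 0.99, adjusted p = 0.0124 and 0.0224), 14 regulators and 1 gene of other roles. The cause of these differences was not tested. With 1 array left out, the lone array of a group is assumed to vary like the other group. No detection calls were used, so how far a dim signal lies above background is known here only from the bacterial controls.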
